A study of Mus musculus with 34 samples.

Results

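*Cntln* encodes centlein, a protein of the centriole, and it is described here with 7 other genes whose products hold the centrioles of a cell together or help to build them, *Cep250*, *Cep135*, *Crocc*, *Cep68*, *Lrrc45*, *Nek2* and *Cntrob*. They make up 8 of the 22040 protein-coding genes in the deposited RNA-seq table and were found in it by gene symbol. The group was chosen by measured values of these same libraries. *Cntln* was selected on its difference between knockout and wild type limb buds, as the 1 gene of 12305 tested that was lower past the adjusted threshold, and the other 7 were added for their place at the centrosome once that contrast had been seen. Differences of these 8 genes between the genotypes are therefore given as a description, with no *p* value, and counts of these genes past a threshold only restate the choice. All 8 passed the filter on low values, which kept genes whose FPKM averaged 0.5 or more across the 6 libraries.

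RNA was sequenced from limb buds of E11.5 mouse embryos, with 3 biological replicates of each genotype. The WT group is labelled wild type for *Hnrnpk*, and the labels do not say whether those embryos carried Cre or floxed alleles. The CKO group is *Prrx1-Cre;Hnrnpk* fl/fl, in which Cre removes several exons of *Hnrnpk*. *Prrx1-Cre* acts in limb bud mesenchyme, incompletely in the hindlimb and not in the apical ectodermal ridge, so cells that keep *Hnrnpk* are part of each CKO library. Embryos of either sex were used. The unit throughout is FPKM, the fragments on a gene scaled to the length of its exons and to a library size that, as deposited, is not the count of reads on the listed genes. The ratio of those reads to that size ran from 0.947 to 1.11, and the reads on the listed genes numbered from 17143034 to 24627737 in a library.

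In an interphase cell, the mother and daughter centriole are tied at their proximal ends by a fibrous linker. C-Nap1, the product of *Cep250*, anchors the fibres, which contain rootletin (*Crocc*), Cep68 and Lrrc45, and the kinase Nek2 dissolves the linker before mitosis so that the centrosomes can form the poles of the spindle. Centlein and Cep135 both bind C-Nap1, and centrobin (*Cntrob*) belongs to the daughter centriole.

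*Hnrnpk* itself, on chromosome 13 from 58391142 to 58403343 of GRCm38 (ENSMUSG00000021546), checks the labels. In WT its FPKM was 193, 195 and 185, in the order of the replicate numbers used throughout, and in CKO it was 127, 142 and 135. Each CKO library was thus below each WT library, which also held for 8.86% of all tested genes. The CKO mean was 70.6% of the WT mean, a difference of -0.50 on the log2 scale (SE 0.13). limma gave it an adjusted *p* of 0.334, which missed the threshold of 0.05, and 0.0575 with the replicate number as a block. Over the alternative settings limma's adjusted *p* ran up to 0.99995. It was under the threshold only with replicates 2 and 3 alone (0.0377), a setting chosen after seeing the data. The value covers the whole gene, so it also counts exons that Cre does not remove. Its exons share 330 bases with those of *Rmi1* on the opposite strand, and whether the counting used the strand is not given in the sources used here.

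Markers of limb bud mesenchyme, the cells in which Cre acts, were present in all libraries. Of 12 such genes, all passed the filter and none was at 0 in any library. limma called 0 of them, with 1 at an unadjusted *p* value under 0.05, beside 1022 of all 12305 tested genes (8.31%). By limma voom on reads, which called 10 of 12300 genes, 0 of these 12 were called. Their median log2 fold change was -0.13, and within numbers 1, 2 and 3 it was -0.06, -0.17 and -0.08. Their summed FPKM was 507, 584 and 596 in WT and 547, 505 and 564 in CKO, with *Hoxd13* the most abundant. *Tbx5*, a forelimb transcription factor, was the 1 gene of this list past the adjusted threshold when the replicate number was a block in the model, which called 346 of all tested genes (2.81%). *Tbx5* had an FPKM of 20.3, 19.1 and 19.2 in WT and 15.3, 7.30 and 9.58 in CKO, a log2 difference of -0.93 (SE 0.24), with all CKO libraries below all WT libraries. limma's adjusted *p* for *Tbx5* was 0.358, 0.00734 with the block and 0.0336 without CKO replicate 1, and ran up to 0.99995 with other libraries left out.

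Red blood cell transcripts set replicate 1 of both genotypes apart. The 9 erythroid genes, none of them at 0, summed to an FPKM of 37788, 63274 and 63997 in WT and to 30832.5, 142935 and 85496.5 in CKO. The embryonic globin gene *Hbb-y* was the most abundant. Replicate 1 was the lowest library of its group in each genotype, and CKO replicate 2 was the highest of all, with globin genes making up 32.4% of its FPKM. Of these 9 genes limma called 0, with 0 at an unadjusted *p* value under 0.05 and 0 by limma voom, and their median log2 fold change was 0.43. Within numbers 1, 2 and 3 the median was -0.30, 1.07 and 0.45, so number 1 had the opposite sign.

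*Cntln* (ENSMUSG00000038070) lies on chromosome 4 from 84884309 to 85131921, on the plus strand, with 26 exons in a span of 248 kb. Its FPKM was 4.91, 5.74 and 5.90 in WT replicates 1, 2 and 3. In CKO replicates 1, 2 and 3 it was 2.18, 1.77 and 1.61. All CKO libraries lay below all WT libraries (SD 0.533 in WT and 0.292 in CKO, n = 3 each). *Cntln* was chosen by this difference, so the gap beside the spread restates that choice. The mean of 1.85 in CKO was 33.6% of the mean of 5.51 in WT. From 628 to 975 reads stood behind the WT values and from 241 to 280 behind the CKO values. The log2 fold change was -1.53 with a standard error of 0.16. Within replicate numbers 1, 2 and 3, the CKO value was below the WT value by a log2 difference of -1.14, -1.64 and -1.81, so the difference was smallest in number 1. With replicates 2 and 3 alone, a setting chosen after seeing the data, it was -1.72. In bulk limb buds, fewer cells that express a gene and less of its RNA per cell cannot be told apart. No annotated gene shares exon bases with *Cntln*, and the 2 processed pseudogenes within its span lie outside its exons.

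The genes *Cep250* and *Cep135* did not share this pattern. *Cep250* (chromosome 2, 155956458 to 155998900), whose product is the docking protein of the fibres, had an FPKM of 13.3, 10.4 and 11.1 in WT and 16.3, 9.12 and 10.9 in CKO. The groups overlapped, with the highest and the lowest value both in CKO, and the log2 fold change was 0.03 (standard error 0.22). Its exons share 1149 bases with *6430550D23Rik* on the opposite strand, a gene with a mean FPKM of 4.09 in WT and 4.28 in CKO, so part of its reads may belong to that gene. *Cep135* (chromosome 5, 76588698 to 76646466), which encodes a centriole wall protein, had 6.85, 5.70 and 5.62 in WT and 7.63, 6.15 and 5.72 in CKO. These groups overlapped too, although the CKO value was the higher within each of the 3 numbers, by a log2 difference of 0.15, 0.11 and 0.02, and the log2 fold change was 0.10 (standard error 0.15).

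Among the fibre proteins, *Crocc* (chromosome 4, 141016637 to 141060550) differed most. Its FPKM was 6.81, 5.66 and 5.76 in WT and 6.39, 3.52 and 4.14 in CKO. CKO replicates 2 and 3 lay below all WT libraries, whereas CKO replicate 1 lay above WT replicates 2 and 3. The log2 fold change was -0.41 (standard error 0.22), and the differences within numbers 1, 2 and 3 were -0.09, -0.67 and -0.47. *Cep68* (chromosome 11, 20227037 to 20249429) had 14.5, 10.4 and 11.8 in WT and 13.8, 11.2 and 11.1 in CKO. *Lrrc45* (chromosome 11, 120713925 to 120721128) had 12.7, 12.1 and 11.7 in WT and 13.6, 9.26 and 12.0 in CKO. For both the groups overlapped, with log2 fold changes of -0.02 (standard error 0.16) and -0.08 (standard error 0.16).

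*Nek2* (chromosome 1, 191821444 to 191833050), the gene of the kinase that dissolves the linker, had an FPKM of 14.6, 9.69 and 10.1 in WT and 14.3, 11.1 and 12.1 in CKO. Replicate 1 was the highest library in each group, the groups overlapped, and the log2 fold change was 0.14 (standard error 0.18). The exons of *Nek2* share 298 bases with an antisense gene. *Cntrob* (chromosome 11, 69299487 to 69323775) had 10.7, 8.02 and 7.97 in WT and 10.1, 6.19 and 7.54 in CKO, and was lower in CKO within each number, by a log2 difference of -0.09, -0.37 and -0.08. Its groups overlapped, and the log2 fold change was -0.18 (standard error 0.20).

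**Figure D1:**
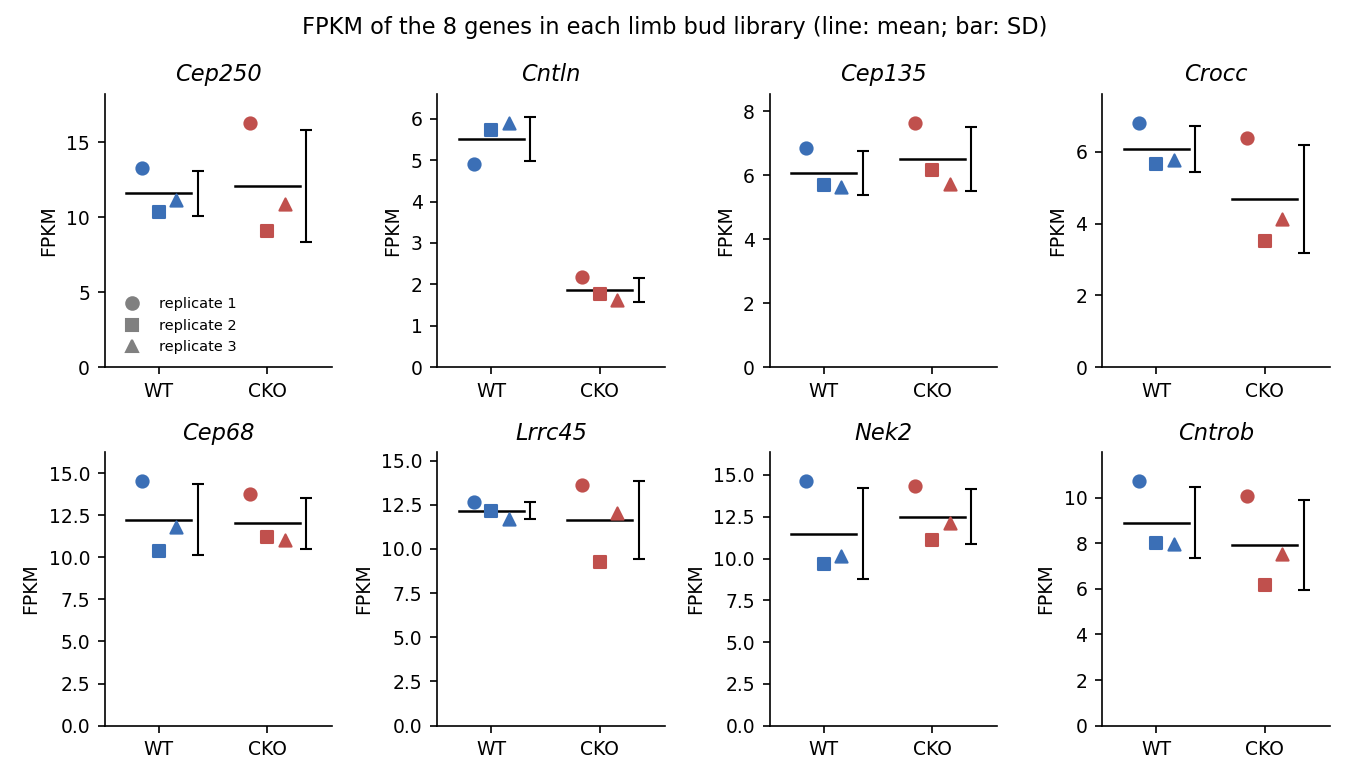
FPKM of the 8 genes (vertical axes, each from 0) in the 3 WT and 3 CKO libraries, with a symbol per replicate number, a line at the group mean and a bar of 1 SD to its right. The CKO values of *Cntln*, from 1.61 to 2.18, lie below its WT values, from 4.91 to 5.90, while the groups overlap for the other 7 genes.

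FPKM is scaled to gene length, so the levels can be ordered between genes. In WT, mean FPKM ran from 12.2 for *Cep68* and *Lrrc45* through 11.6 for *Cep250*, 11.5 for *Nek2*, 8.90 for *Cntrob*, 6.08 for *Crocc* and 6.06 for *Cep135* to 5.51 for *Cntln*. Of the 7 neighbouring pairs in that order, the step from *Cntrob* to *Crocc* alone was larger than the SD of both genes. *Cntln* was thus the lowest in WT, but within the spread of *Cep135* and *Crocc*. In CKO the order ran from 12.5 for *Nek2* through 12.1 for *Cep250*, 12.0 for *Cep68*, 11.6 for *Lrrc45*, 7.93 for *Cntrob*, 6.50 for *Cep135* and 4.68 for *Crocc* to 1.85 for *Cntln*. There the steps from *Lrrc45* to *Cntrob* and from *Cep135* to *Crocc* exceeded the SD of both genes although their values overlapped. The last step, from *Crocc* to *Cntln*, also exceeded both SDs, and the values of these genes did not overlap.

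With limma's adjusted *p* value under 0.05 over all 12305 genes, 1 of the 8 genes was called lower in CKO, beside 0.00813% of all tested genes, and 0 were called higher, beside 0.0569%. With the replicate number as a block 1 of 8 was again lower, beside 1.68% of all tested genes, and 0 higher, beside 1.13%. The count lower in CKO was 0 without WT replicate 1, WT replicate 2, WT replicate 3, CKO replicate 2 or CKO replicate 3, and 1 without CKO replicate 1. It was also 0 with no filter on low values. In all these settings the log2 fold change of *Cntln* stayed between -1.64 and -1.44. By values alone, 1 of the 8 genes had all CKO libraries below all WT libraries, beside 8.86% of all tested genes, and 0 had all CKO libraries above, beside 5.63%. Within each of the 3 numbers, *Cntln*, *Crocc* and *Cntrob* were lower in CKO, 3 of 8 genes beside 21.3% of all tested genes, and *Cep135* was higher, 1 of 8 beside 18.2%.

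**Figure D2:**
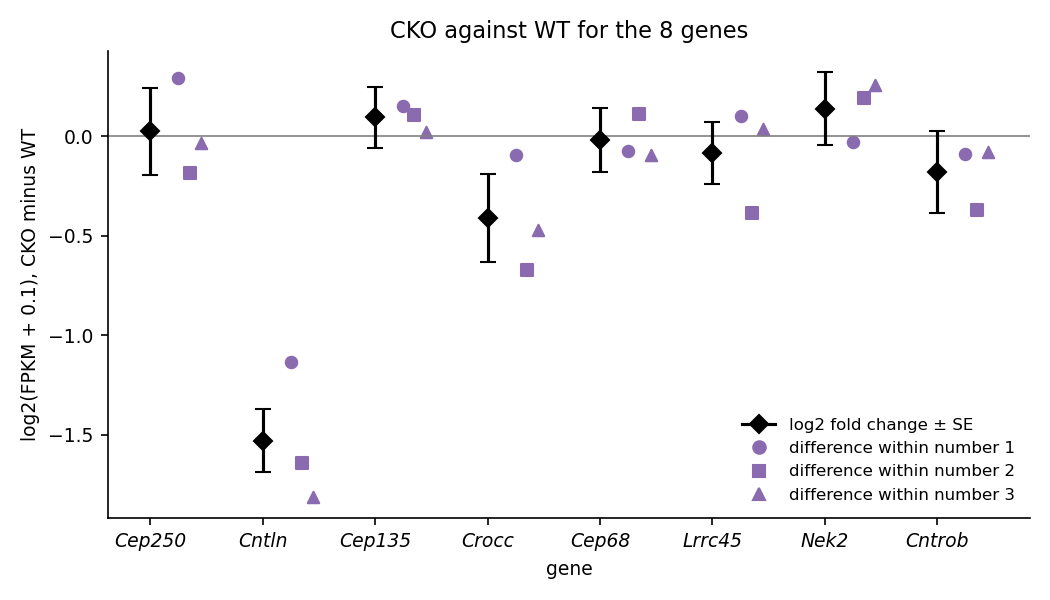
Difference between CKO and WT in log2(FPKM + 0.1) (vertical axis) for the 8 genes. Diamonds give the log2 fold change with its standard error, and purple symbols give the difference within replicate numbers 1, 2 and 3, which for *Cntln* runs from -1.81 to -1.14.

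A second pattern among these genes ran between replicates and not between genotypes. In 7 of the 8 genes, replicate 1 was the highest library in WT and also in CKO, beside 29.3% of all tested genes. *Cntln* was the exception, since its replicate 1 was the lowest library in WT and the highest in CKO. Against the mean of replicates 2 and 3, replicate 1 of *Nek2* was higher by a log2 difference of 0.56 in WT and 0.30 in CKO. For *Crocc* these differences were 0.25 and 0.73, and for *Cep250* 0.30 and 0.71. For *Cntln* they were -0.24 and 0.35. The median over all tested genes was -0.02 in WT and -0.01 in CKO, values that the scaling between libraries holds near 0. Of 81 tested genes in 5 lists of other centrosome genes, 42 (51.9%) were also highest in replicate 1 of both genotypes. Replicate 1 of both genotypes was also the lowest library of its group in the summed erythroid, ectoderm, muscle precursor and neural transcripts. The endothelial and cell cycle sums were instead highest in replicate 1 within WT and lowest in replicate 1 within CKO. For mesenchyme, replicate 1 was lowest in WT alone, and for macrophages in neither genotype. Such sums weigh the most abundant gene of a list most. In WT, *Hoxd13* of the mesenchyme list had an FPKM of 54.7, 115 and 123. *Myog* of the muscle list had 2.23, 13.6 and 11.2 in WT. The part of these transcripts in the pattern was not tested.

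**Figure D3:**
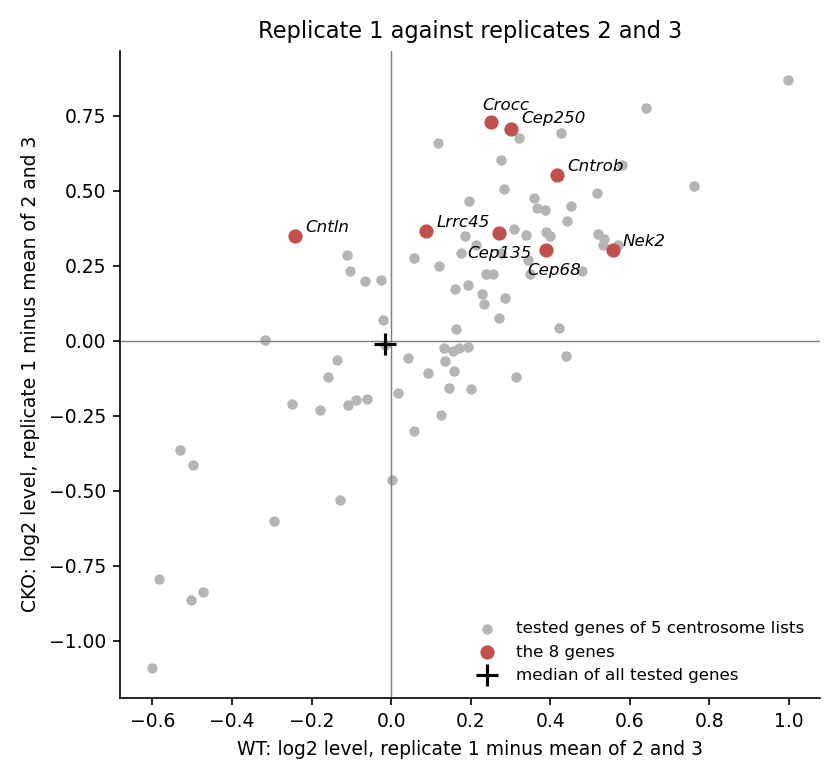
Log2 level in replicate 1 minus the mean of replicates 2 and 3, in WT (horizontal axis) and in CKO (vertical axis), for the 8 genes (red), for tested genes of 5 centrosome lists (grey) and for the median of all tested genes (cross, at -0.02 and -0.01). Of the 8 genes, *Cntln* alone has opposite signs, -0.24 in WT and 0.35 in CKO.

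Other genes of the linker and the centrosome were taken from lists based on general knowledge. They are described by how many of their genes were called and by their median log2 fold change, which was 0.0048 over all 12305 tested genes. Of 13 genes that regulate or add to the linker, 10 were tested and 0 were called by limma, with 0 also at an unadjusted *p* value under 0.05 and by limma voom on reads. Their median was 0.05. The lowest were *Nek9*, a mitotic kinase upstream of Nek6 and Nek7, at -0.18, and *Plk1*, a polo-like kinase that acts on Nek2 at mitotic entry, at -0.09. The highest were the kinases *Nek6* and *Nek7*, at 0.14 and 0.12. The median of this list was -0.05 with quantile normalization and, with a library left out, ran from -0.0095 without CKO replicate 2 to 0.08 without CKO replicate 1, so its side of 0 depends on these settings.

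Of 31 genes of centriole assembly and duplication, all were tested and 0 were called by limma, 3 at an unadjusted *p* value under 0.05 (8.31% of all tested genes) and 0 by limma voom, with a median of -0.01. It was 0.0067 with quantile normalization and 0.0021 with median-ratio scaling, and with a library left out it ran from -0.13 without WT replicate 2 to 0.06 without WT replicate 1. *Sfi1*, which encodes a centrin-binding protein, was the lowest at -0.55, with an FPKM of 2.11, 2.16 and 2.42 in WT and 1.71, 1.46 and 1.31 in CKO, and *Poc1a*, which encodes a centriole wall protein, followed at -0.35. *Hyls1* and *Plk4*, the kinase that starts centriole duplication, were the highest at 0.29 and 0.23. In the list of centriole appendage genes, 15 of 16 were tested and 0 were called by limma, with 0 at an unadjusted *p* value under 0.05 and 0 by limma voom. The median was -0.11, and with a library left out it ran from -0.18 without CKO replicate 1 to -0.0048 without WT replicate 1. *Cntrl* and *Ankrd26* were the lowest at -0.39 and -0.21, and *Cep170* and *Cep83* the highest at 0.12 and 0.07.

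Of 15 genes of the pericentriolar material, which nucleates microtubules, all were tested and 0 were called by limma, with 1 at an unadjusted *p* value under 0.05 (8.31% of all tested genes) and 0 by limma voom. The median was -0.02, and it lay between 0.02 and 0.06 without WT replicate 1, WT replicate 2, WT replicate 3, CKO replicate 1 or CKO replicate 3. The genes ran from *Tubgcp6* at -0.18 and *Cdk5rap2* at -0.16 to *Aurka* at 0.17 and *Tubgcp5*, a subunit of the gamma-tubulin ring complex, at 0.31. Centriolar satellites are granules around the centrosome, and of their 10 genes, all tested, 0 were called by limma, 1 at the same unadjusted threshold and 0 by limma voom. Their median was 0.03, and it was -0.0032, -0.05, -0.02 and -0.02 without WT replicate 1, WT replicate 2, CKO replicate 1 and CKO replicate 2, and 0.06 without CKO replicate 3. *Cep72* at -0.37 followed *Cep131* at the lower end, and *Ssx2ip* and *Ccdc66* were the highest at 0.19 and 0.15. *Cep131* had an FPKM of 14.0, 13.2 and 12.7 in WT and 11.3, 6.61 and 7.68 in CKO. All its CKO libraries lay below its WT libraries, a difference of -0.67 on the log2 scale (SE 0.20), with an adjusted *p* by limma of 0.408. With the replicate block limma gave 0.0172, and from 0.0504 to 0.99995 with a library left out. The block made *Cep131* the 1 called gene among the 81 tested in these 5 lists, beside 2.81% of all tested genes.

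A cell that loses its centrosomes, or gains too many, can halt its cycle through p53, and 8 genes of these surveillance routes were read as a further list. *Cdkn1a*, which encodes the cell cycle inhibitor p21 and is a target of p53, was the 1 gene called among them, beside 0.0569% of all tested genes called higher. At an unadjusted *p* value under 0.05 were 2 of the 8, beside 8.31% of all tested genes. By limma voom on reads 1 was called, beside 10 of the 12300 genes it tested. The FPKM of *Cdkn1a* was 4.44, 6.60 and 5.59 in WT and 21.5, 26.5 and 28.3 in CKO, with every CKO library above every WT library. It rose by 2.19 on the log2 scale (SE 0.18), with an adjusted *p* by limma of 0.0101, and of 7.25e-07 with the block. The call was lost on leaving out WT replicate 3 (limma adjusted *p* 0.117), CKO replicate 2 (0.0782) or CKO replicate 3 (0.117), while the log2 fold change was 2.20, 2.15 and 2.104. Of its exon bases, 273 are also annotated to a transcript of the other strand. The other extremes of the list were *Usp28*, part of the mitotic surveillance complex with 53BP1, at -0.41, *Trp53bp1*, which encodes 53BP1, at 0.02, and *Pidd1*, a component of the PIDDosome, at 0.34. The list's median was 0.21, and with a library left out it ran from 0.17 to 0.26. p53 also acts on *Cdkn1a* in response to other stresses, and which route was active was not measured.

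Proliferating cells carry more transcripts of mitotic and centrosome genes, so 15 cell cycle genes were set beside them. All were tested and 0 were called by limma, with 0 at an unadjusted *p* value under 0.05 and 0 by limma voom. The median was 0.12, and it was 0.04 with quantile normalization, 0.04 without CKO replicate 2 and 0.19 without CKO replicate 1. *Ccnb2* and *Ube2c* were the lowest at -0.19 and -0.0011, and *Mki67* and *Cenpe* the highest at 0.27 and 0.24. By number, the median difference between CKO and WT was -0.11 in number 1, 0.29 in number 2 and 0.10 in number 3.

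**Figure D4:**
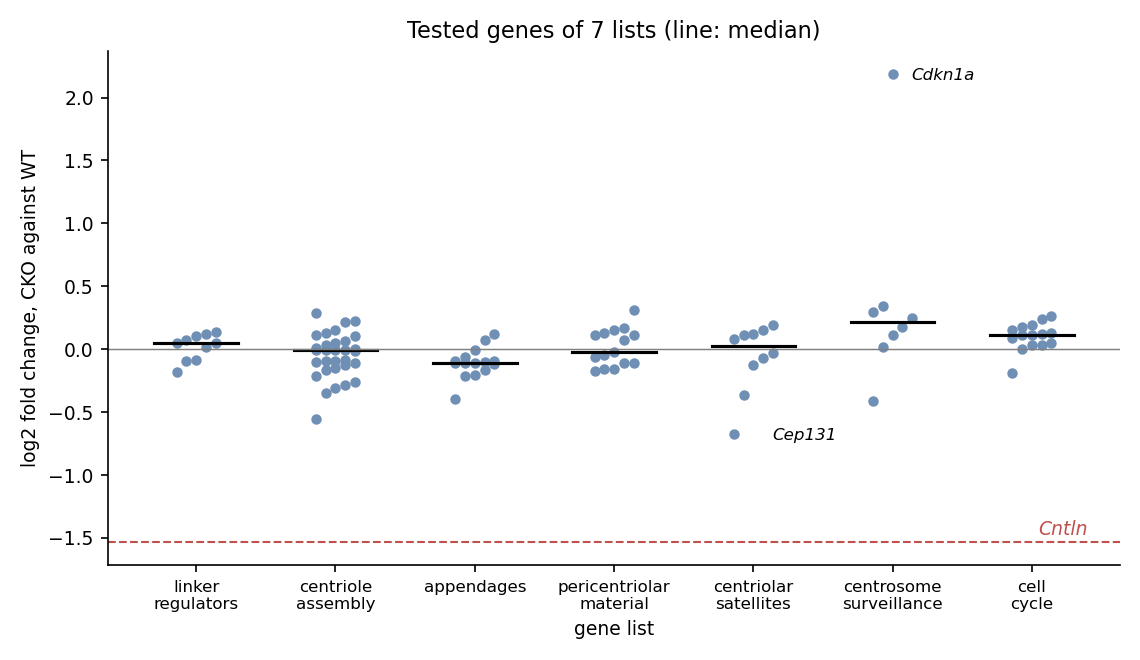
Log2 fold change of CKO against WT (vertical axis) for the tested genes of 7 lists (points) with the median of each list (line), from -0.11 for appendage genes to 0.21 for surveillance genes. The dashed line marks *Cntln* at -1.53, below the lowest gene of each list, and *Cdkn1a* stands at 2.19. *Cntln* was chosen by this same contrast, so its place below the lists restates that choice.

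Of the nearest 3 listed genes on each side of *Cntln* on chromosome 4, the 3 on the side before its start passed the filter. *Bnc2*, a zinc finger gene that ends 209 kb before *Cntln* starts, had an FPKM of 1.07, 1.03 and 1.26 in WT and 1.49, 1.36 and 0.913 in CKO. It differed by 0.13 on the log2 scale (SE 0.22), and limma's adjusted *p* was 0.910. The next genes on that side were *Ccdc171*, 1019.6 kb away, with a difference of -0.03 (SE 0.23; adjusted *p* by limma 0.979), and *Psip1*, a gene for a chromatin protein 1398 kb away, with 0.09 (SE 0.13; adjusted *p* by limma 0.896). For all 3 genes the groups overlapped. On the other side lay *Sh3gl2*, which starts 73.2 kb after *Cntln* ends, *Adamtsl1* and *Saxo1*. These were under the filter and not tested with it in place, with highest FPKM of 0.108, 0.350 and 0.104 over the 6 libraries. With 17 reads at most for *Sh3gl2* and 5 for *Saxo1*, no difference is described for these 2 genes. *Adamtsl1* had 21, 107 and 74 reads in WT and 40, 49 and 51 in CKO, so its groups overlapped.

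The 8 genes differ in size, and *Cntln* is the longest by far. *Lrrc45* spans 7.20 kb, *Nek2* 11.6 kb, *Cep68* 22.4 kb, *Cntrob* 24.3 kb, *Cep250* 42.4 kb, *Crocc* 43.9 kb and *Cep135* 57.8 kb, beside 248 kb for *Cntln*. Among the 12300 tested genes with an annotated span (5 had none), the median log2 fold change was lower in longer genes. It was 0.03 for the 3103 genes of up to 10 kb, 0.01 for 5838 genes of 10 to 50 kb, -0.0031 for 1769 genes of 50 to 100 kb, -0.04 for 1041 genes of 100 to 200 kb and -0.10 for the 549 genes over 200 kb. Of the longest 549 genes, 387 (70.5%) were below 0, and the middle of their distribution ran from -0.24 to 0.04 (quartiles). *Cntln* stood far outside that range, as a gene chosen by this same contrast. Of all tested genes 7 had a lower log2 fold change, 6 of them of up to 10 kb, 1 of 10 to 50 kb and 0 among the longest 549. The median of the longest genes was -0.03 within number 1, -0.07 within number 2 and -0.20 within number 3. Correlation of the libraries did not settle which WT library belongs with which CKO library in numbers 2 and 3. The values within these numbers therefore depend on that matching. Only within number 3 did the median fall at each step of span, from 0.10 in the shortest genes. Over the same steps it stayed between -0.03 and -0.01 within number 1. Within number 2 it lay between -0.07 and 0.04, in no steady order. The part of gene length in the difference of *Cntln* was not tested.

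**Figure D5:**
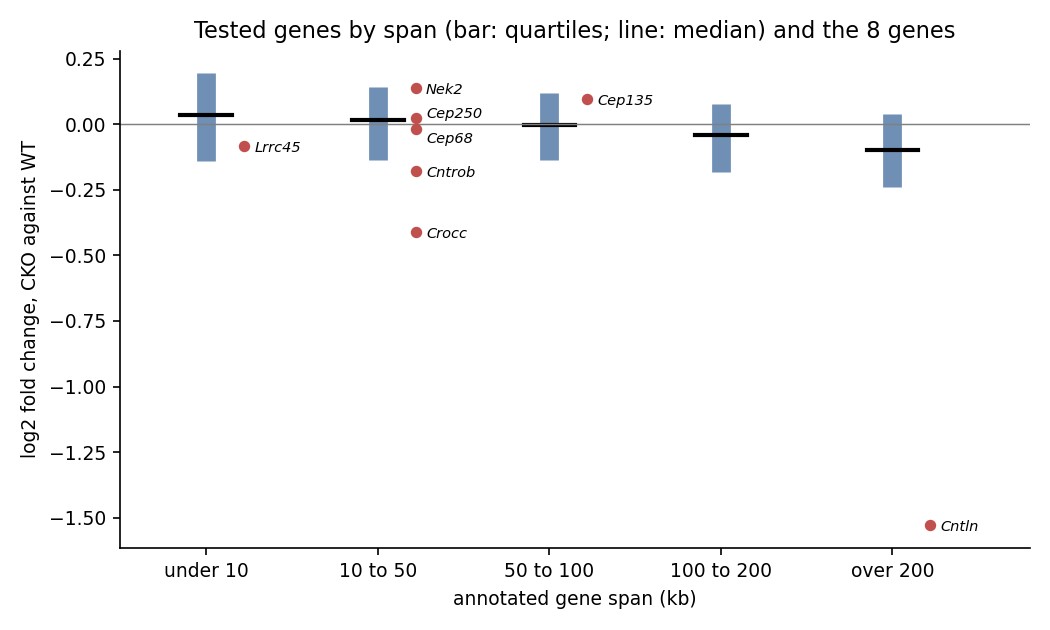
Log2 fold change of CKO against WT (vertical axis) by annotated gene span in kb (horizontal axis) for the 12300 tested genes with a span, with bars from the lower to the upper quartile and a line at the median, and the 8 genes in red. The median runs from 0.03 in genes of up to 10 kb to -0.10 in genes over 200 kb, and *Cntln* lies at -1.53.

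Across the 6 libraries, the other 7 genes ranged widely in their correlation with *Cntln*. The correlation of log2(FPKM + 0.1) with *Cntln* was highest for *Crocc*, with Pearson's r = 0.67, and lowest for *Nek2*, with r = -0.33. Among 11189 tested genes whose FPKM averaged 1 or more, the 5 most like *Cntln* were *Plppr2* (r = 0.997), *Abca8b* (r = 0.996), *Cfp* (r = 0.995), *Arsb* (r = 0.993) and *Fhod3* (r = 0.993), with Spearman's rho from 0.886 to 0.943. The libraries fall into 2 genotypes, so these values mostly restate that all CKO values of each gene lay below its WT values, and 286 genes reached an r over 0.9. *Plppr2*, a member of the lipid phosphatase-related family, had an FPKM of 3.63, 3.89 and 3.87 in WT and 2.17, 1.79 and 1.80 in CKO. *Cfp*, which encodes the complement factor properdin, had 6.04, 6.64 and 6.55 in WT and 3.85, 3.16 and 2.85 in CKO. *Arsb*, which encodes the lysosomal enzyme arylsulfatase B, had 3.06, 3.61 and 3.57 in WT and 2.03, 1.77 and 1.84 in CKO. The CKO means of these 3 genes were 50.5%, 51.3% and 55.2% of their WT means, a smaller difference than that of *Cntln*. For *Abca8b*, a transporter gene, and *Fhod3*, a formin gene, the shares were 60.3% and 65.6%.

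Markers of other cells in the limb bud were read from lists of the same kind. The 8 ectoderm genes (median log2 fold change 0.15), of which *Krt5* was the most abundant, summed to an FPKM of 46.9, 66.9 and 78.0 in WT and 51.7, 80.2 and 79.5 in CKO. Their median within numbers 1, 2 and 3 was 0.04, 0.31 and -0.01. The 6 muscle precursor genes (median 0.47 over the 5 tested), of which *Myog* was the most abundant, summed to 9.997, 25.4 and 22.6 in WT and 20.6, 29.2 and 26.6 in CKO, so both lists were lowest in replicate 1 of each genotype. The muscle median within the numbers was 0.73, 0.21 and 0.20. The 5 endothelial genes (median -0.30), led by *Cdh5*, summed to 26.5, 18.2 and 20.5 in WT and 13.0, 21.8 and 19.1 in CKO. Within the numbers their median was -1.06, 0.22 and -0.06, so number 1 carried the difference. The 4 neural and Schwann cell genes (median 0.33 over the 3 tested) summed to 5.76, 8.77 and 7.81 in WT and 6.24, 6.91 and 7.50 in CKO, again lowest in replicate 1 of each genotype. The most abundant of them, *Tubb3*, was at -0.41, and the median within the numbers was 0.87, -0.19 and -0.07. The 4 macrophage genes summed to between 5.34 and 7.32, with *Csf1r* the most abundant, and 2 of them were tested (median -0.02, and 0.12, 0.20 and -0.39 within the numbers). No gene of these lists was at 0 in any library, and 0 were called by limma and 0 by limma voom. At an unadjusted *p* value under 0.05 were 2 genes, both of them among the 3 neural and Schwann cell genes tested, beside 8.31% of all tested genes. For each of these sums the groups overlapped. The cells in which *Cntln* was expressed were not measured, and the part of cell composition in its difference was not tested.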

How the data were processed

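The 3 WT and 3 CKO RNA-seq libraries were analysed and other assays of the series were not used. The authors deposited FPKM for all 6 in 1 table, from stranded mRNA libraries. The submitters' processing notes name HISAT2 2.1.0 and featureCounts 1.6.3 among tools for all assays, with mm10. Positions come from GENCODE vM21 on GRCm38, in which 99.9% of identifiers were found. FPKM times exon length gave whole reads in all libraries, within 0.1 reads, for 92.7% of genes. In CKO replicate 2 these reads were 1.11 times the size the authors divided by, so the FPKM carry a scaling between libraries.

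Genes averaging an FPKM of 0.5 or more were compared on log2(FPKM + 0.1), which understates fold changes of low genes, with limma 3.58.1 (lmFit, eBayes with trend) in R 4.3.3, and adjusted over all genes by Benjamini-Hochberg. Tables and plots were made in Python 3.11.15. The model was tested on simulated data. Replicate numbers are shared between the groups. Across genes (not independent replicates), deviations from group means correlated at 0.64, 0.44 and 0.27 for numbers 1, 2 and 3, and at -0.60 to 0.49 for different numbers. The numbers were therefore used as a pairing in the replicate block, although WT replicate 2 correlated more with CKO replicate 3 (0.49) than with CKO replicate 2, and WT replicate 3 more with CKO replicate 2 (0.31) than with CKO replicate 3, so numbers 2 and 3 could not be told apart by this measure. What a number means is not in the labels.

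The 8 genes and all lists were chosen with earlier results of these data known. Named are the 8 genes, *Hnrnpk*, list genes past the adjusted threshold with or without the block, the 2 lowest and 2 highest of each centrosome, surveillance and cell cycle list, 3 neighbours on each side of *Cntln*, the 5 genes most correlated with it, and the most abundant gene of each marker list.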

Additional observations from a re-analysis of the deposited data

How the results depend on the processing

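Alternatives were pseudocounts of 0.5 and 1, no filter or a filter at 1 FPKM, median-ratio scaling, quantile normalization, eBayes without the trend, the replicate block, limma voom on reads, each library left out, and, chosen after seeing the data, replicates 2 and 3 alone.

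The model called 8 genes in all, 14 with quantile normalization, 346 with the replicate block (139 higher and 207 lower, with all 8 among them) and 1851 with replicates 2 and 3 alone. With a library left out it called 1 to 23. Of the 8 genes described, 0 were called with no filter, beside 6 of the 17892 genes tested there. With replicates 2 and 3 alone, 2 of the 8, *Cntln* and *Crocc*, were called lower. In that setting, chosen after seeing the data, 984 of all 12305 tested genes were called lower. With a library left out, 0 or 1 were called. The block changed no call of the 8 genes or their neighbours, and it added *Cep131* and *Tbx5* among list genes and *Plppr2*, *Cfp*, *Arsb* and *Fhod3* among the 5 genes chosen by their correlation with *Cntln*. Causes were not tested.

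*Cntln* kept its sign in all settings, from -1.72 with replicates 2 and 3 alone to -1.19 with a pseudocount of 1. *Crocc* ran from -0.65 without CKO replicate 1 to -0.23 without CKO replicate 2, *Cntrob* from -0.36 without CKO replicate 1 to -0.02 without CKO replicate 2, and *Nek2* from 0.03 without WT replicate 2 to 0.33 without WT replicate 1, so these kept their sign but not their size, whereas *Cep250*, *Cep68*, *Lrrc45* and *Cep135* changed sign in some. With 3 libraries per group, differences near the standard errors, 0.15 to 0.22 without the block and 0.11 to 0.15 with it, were not resolved.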
